A study of Rattus norvegicus with 12 samples.

Results

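The levels of 10 genes of the rat left ventricle were followed rat by rat, because earlier looks at these counts had shown them high in some hearts and nearly silent in others. They are Tma7, Ncbp2, Fuom, Chid1, Kansl2, Uchl3, Capns1, Fam50a, LOC100911994 and RGD1563601, and they were selected on their levels in these same rats. Those levels are therefore given as a description, and where fits over all genes also called some of them, the calls are set down as counts that support nothing. The 10 symbols held 12 of the 34700 rows of the gene table, since Ncbp2 and Uchl3 each had 2 identifiers. An Ncbp2 row (ENSRNOG00000048589) had 0 counts in all 12 rats, and the 11 other rows all passed a filter of at least 1 CPM (counts per 1000000 counted reads) in 2 or more rats. A gene that is high in only a few rats passes such a filter through those rats.

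The hearts came from male Sprague-Dawley rats that were 8 weeks old at surgery, with tissue taken 12 weeks later. Sham rats had a thread passed around the left anterior descending coronary artery without ligation. HF rats had the artery ligated, so that heart failure followed myocardial infarction. Both groups were sedentary. HFE rats were ligated and then trained on a treadmill, with 60 min sessions on 5 days a week for 8 weeks. BAIBA rats, titled HF+Med in the sample labels, were ligated and then received β-aminoisobutyric acid by gavage, at 75 mg/kg a day for 8 weeks. It is a small molecule that working muscle releases. The study's methods give water by gavage for the Sham and HF rats of its BAIBA experiment and state none for exercised rats. Each group held 3 separate rats. RNA was taken from the anterior wall of the left ventricle. The study's methods give the area around the infarct as the site for the BAIBA group, while another passage of the study gives it for both HF and BAIBA, so a difference in sampling site cannot be told apart from the groups. No rat was treated without ligation in these libraries.

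Most of the 10 genes serve work that goes on in every cell. Tma7 and Ncbp2 belong to translation and to the handling of capped RNA, Fam50a to splicing, Kansl2 to histone acetylation, Uchl3 and Capns1 to the removal of ubiquitin and the cutting of proteins, and Fuom to sugar handling. Genes of this kind are usually transcribed at a steady level in a given tissue. A rat gene can also stand in a table more than once, because a genome assembly may hold a true copy, a processed copy or the same stretch placed at several positions, and a short read that fits several of them may be given to any or to none.

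Each library held between 14812541 and 19732588 counts, a 1.33-fold span, and levels are given as CPM scaled with TMM factors over all 12 rats. A count of 0 allows up to 3 counts, which is 0.159 to 0.208 CPM depending on the rat. The 7 cardiomyocyte markers were all measured and summed to between 32132 and 40960 CPM, which fits the labelled tissue. Atrial markers ranged from 12.3 to 538 CPM in sum, erythroid markers from 238 to 688 CPM and leukocyte markers from 57.9 to 186 CPM. Adipocyte markers ranged from 0.194 to 19.7 CPM, highest in HF 1, BAIBA 3 and Sham 3, and the part of these cells in the levels below was not tested. In bulk tissue, fewer cells of a type and less RNA per cell cannot be told apart.

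To put a number on an on-off pattern, the 12 rats were ordered by log2(CPM + 0.5) for each gene, and the widest gap between neighbours in that order was taken. An on-off gap was a gap of at least 2 on the log2 scale, which is 4-fold, with at least 2 rats on each side and at least 1 group with rats on both sides. By this measure 4 of the 12 rows had an on-off gap: RGD1563601, Tma7, Fam50a and Ncbp2 (ENSRNOG00000001746). The 7 other measured rows had widest gaps of 0.89 to 1.29, short of the limit on this scale, and in 6 of them the levels were graded, while LOC100911994 was split between groups. With log2(CPM + 0.1) the gap of LOC100911994 was 2.07. Just inside the limit lay Ncbp2 at 2.00, and next outside it lay LOC100911994 at 1.29 and Capns1 at 1.28.

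**Figure D1:**
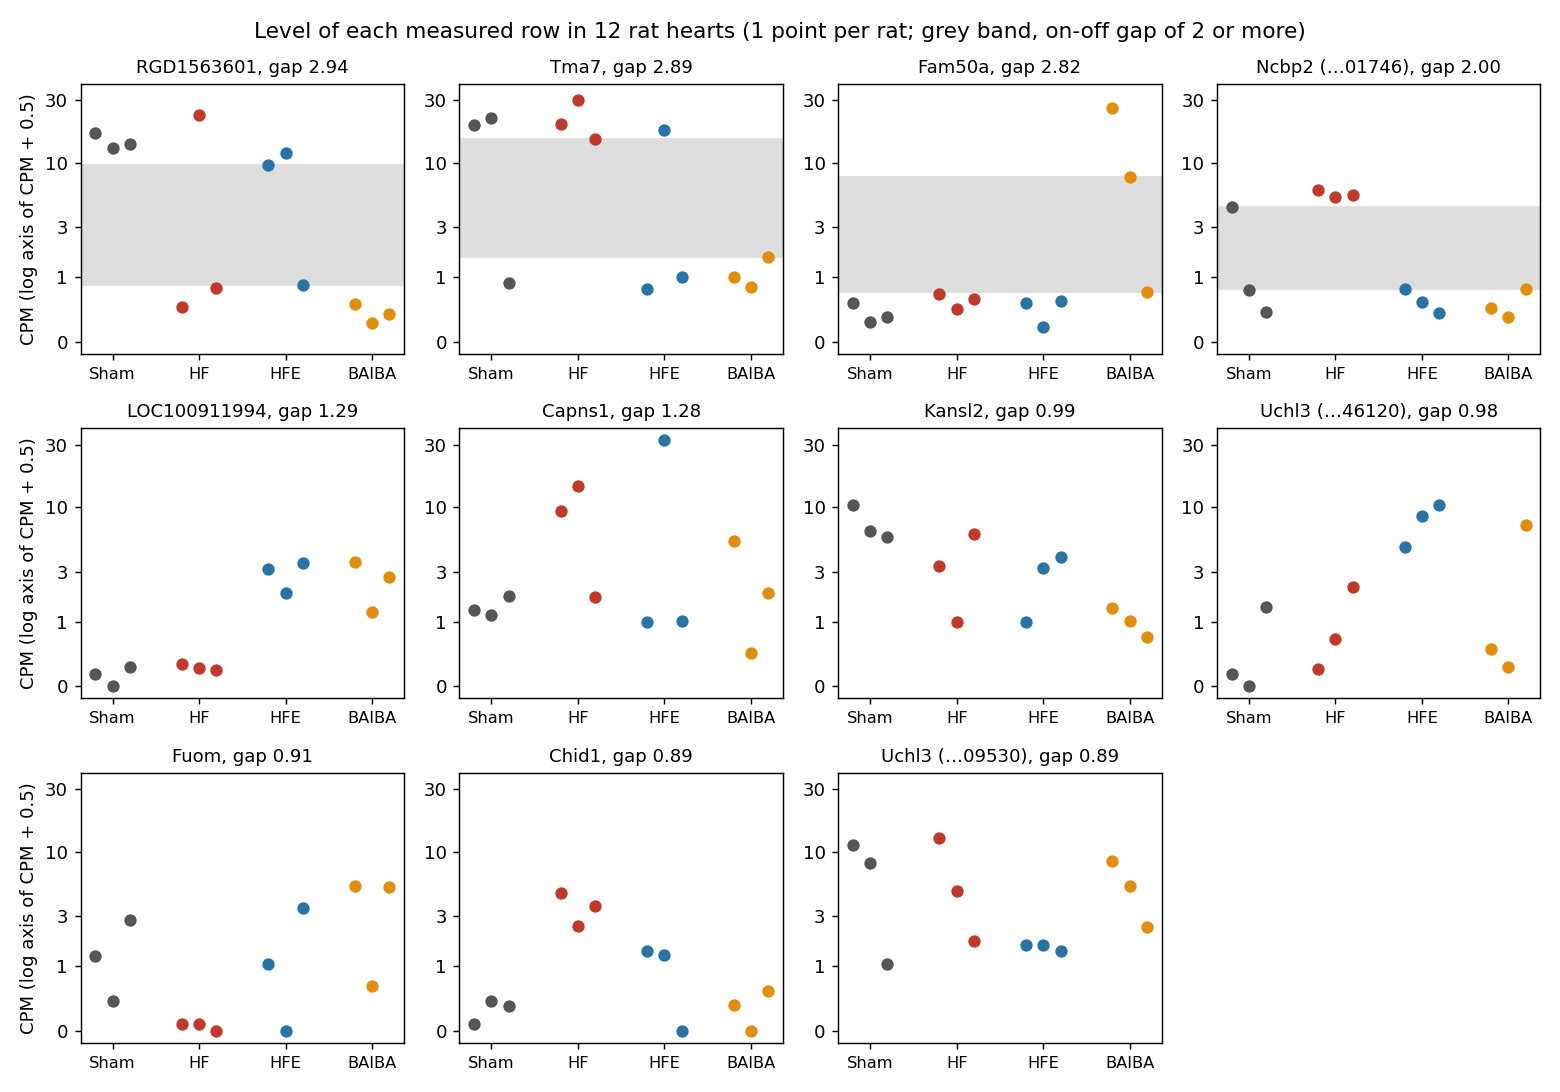
Level of each of the 11 measured rows in every rat, with groups on the x axis, rats 1 to 3 from left to right within a group, and CPM on a log axis of CPM + 0.5. Grey bands mark the gaps of at least 2 in RGD1563601, Tma7, Fam50a and Ncbp2; for the 2 Uchl3 rows and Ncbp2 the last 5 digits of the identifier are shown.

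Tma7 (ENSRNOG00000047225) encodes a small protein of the translation machinery. It stood at 19.4, 22.1 and 0.854 CPM in Sham rats 1 to 3, at 20.0, 30.1 and 15.3 CPM in HF rats, at 0.732, 17.8 and 1.01 CPM in HFE rats, and at 1.00, 0.770 and 1.63 CPM in BAIBA rats. In counts, the low rats held 11 to 27 and the high rats 257 to 491. The gap lay between 1.63 and 15.3 CPM, a 7.40-fold step on the CPM + 0.5 scale, with 6 rats on each side, and the next widest gap was 0.49. Ranges over rats are given throughout as the highest over the lowest CPM after 0.5 was added to each, which understates the span of low genes. Sham and HFE were divided, each with rats on both sides, while all HF rats were high and all BAIBA rats low. How many of all genes separate HF from BAIBA was not counted.

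Where the RefSeq table places Tma7, on chromosome 8 of the GRCr8 assembly, its transcription start lies 88 bases from that of Ccdc51, a gene read in the opposite direction. The window of 250 bases before and 50 bases after the Tma7 start, chr8:118609319-118609618 on the minus strand, is shown because it holds both starts. Capitals mark the 89 bases from the Ccdc51 start to the Tma7 start.
Tma7 window: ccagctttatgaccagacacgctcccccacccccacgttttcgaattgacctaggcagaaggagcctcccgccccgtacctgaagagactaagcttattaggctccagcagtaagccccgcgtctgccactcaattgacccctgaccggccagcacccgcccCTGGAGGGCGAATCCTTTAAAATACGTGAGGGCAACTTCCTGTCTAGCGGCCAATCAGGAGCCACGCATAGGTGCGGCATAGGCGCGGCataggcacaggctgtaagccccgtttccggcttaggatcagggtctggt
Ccdc51, which encodes a coiled-coil protein, ranged from 10.8 to 17.0 CPM over the 12 rats, a 1.55-fold range against 24.8-fold for Tma7. The levels of the 2 genes had a Pearson correlation of -0.18 across the 12 rats, which share library and depth within a rat. In the rats where Tma7 was low, the gene that starts next to it stayed within that narrow range. The genome build behind the gene table is not settled by the sources used here, so whether the Tma7 row lies at this position was not tested.

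Ncbp2 encodes the smaller subunit of the nuclear complex that binds the cap of new RNA. Its measured row stood at 4.44, 0.713 and 0.328 CPM in Sham, at 6.13, 5.40 and 5.56 CPM in HF, at 0.732, 0.485 and 0.317 CPM in HFE, and at 0.390, 0.257 and 0.724 CPM in BAIBA. HF was the one group with all 3 rats high, and of the other 9 rats only Sham 1 was high. The split of Sham was between 77 counts in Sham 1 and 11 and 5 counts in the other 2 rats. HF did not overlap with any other group, since Sham 1 at 4.44 CPM lay under the lowest HF rat at 5.40 CPM. How many of all genes set HF apart in this way was not counted, so nothing is read from it. The gap of 2.00 sat on the limit, and it fell below 2 with plain library-size scaling, with a pseudocount of 1 or with FPKM in place of CPM.

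Fam50a (ENSRNOG00000045790), an X-linked gene for a nuclear protein found with the spliceosome, was low in 10 of 12 rats. Sham rats had 0.462, 0.194 and 0.263 CPM, HF rats 0.631, 0.368 and 0.530 CPM, HFE rats 0.466, 0.138 and 0.507 CPM, and BAIBA rats 26.2, 7.70 and 0.663 CPM. BAIBA 1 and BAIBA 2 were high with 470 and 120 counts, and BAIBA 3 had 11 counts, as did HF 1, the highest rat of the other groups in counts. The range over the rats was 41.8-fold on the CPM + 0.5 scale, the widest of the 11 rows on that scale.

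Kansl2 (ENSRNOG00000053541) encodes a subunit of the nonspecific lethal (NSL) complex, which acetylates histones. It was graded from 0.663 to 10.5 CPM: Sham rats had 10.5, 6.55 and 5.84 CPM, HF rats 3.38, 0.982 and 6.14 CPM, HFE rats 0.999, 3.25 and 4.05 CPM, and BAIBA rats 1.39, 1.03 and 0.663 CPM. All BAIBA rats were below all Sham rats, while HF and HFE each spread across both levels. The share of all genes that separate these 2 groups was not counted.

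Uchl3, a hydrolase that releases ubiquitin and the related modifier Nedd8, had 2 rows that ran opposite to each other. Row ENSRNOG00000046120 stood at 0.115, 0 and 1.44 CPM in Sham, at 0.172, 0.613 and 2.22 CPM in HF, at 4.86, 8.51 and 10.4 CPM in HFE, and at 0.446, 0.192 and 7.24 CPM in BAIBA. Row ENSRNOG00000009530 stood at 11.3, 8.23 and 1.05 CPM in Sham, at 12.8, 4.91 and 1.80 CPM in HF, at 1.66, 1.66 and 1.46 CPM in HFE, and at 8.53, 5.39 and 2.41 CPM in BAIBA. Their correlation across the 12 rats was -0.83, and only 2 of 12 rats lay on the same side of both gaps. All HFE rats were high in the first row and low in the other, and BAIBA 3 did the same while BAIBA 1 and BAIBA 2 did the reverse. How many of all genes hold the HFE rats on 1 side was not counted. Summed per rat, the 2 rows gave 2.5 to 13 CPM, a 4.49-fold range. The first row alone ranged 21.8-fold, and the second had a narrower range, from 1.05 to 12.8 CPM. Whether the rows offset each other was not tested.

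Capns1 (ENSRNOG00000045747), the regulatory subunit shared by calpains 1 and 2, was highest in HFE 2. It stood at 1.33, 1.17 and 1.84 CPM in Sham, at 9.35, 14.5 and 1.80 CPM in HF, at 0.999, 32.8 and 1.01 CPM in HFE, and at 5.41, 0.385 and 1.93 CPM in BAIBA. Sham was the one group whose 3 rats were alike, with a range of 18 to 28 counts, and the rats of HF, HFE and BAIBA lay on both sides of the gap of 1.28.

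Fuom (ENSRNOG00000047000), which interconverts the 2 ring forms of fucose, reached 0 counts in HF 3 and HFE 2. Its levels were 1.27, 0.324 and 2.82 CPM in Sham, 0.0573, 0.0613 and 0 CPM in HF, 1.07, 0 and 3.55 CPM in HFE, and 5.35, 0.577 and 5.25 CPM in BAIBA. The 3 HF rats had 1, 1 and 0 counts, at or below the limit that a count of 0 allows, and did not overlap with Sham or BAIBA. Sham 2 had only 5 counts, so the separation from Sham rests on few counts. The share of all genes with such a separation was not counted. HFE and BAIBA each held 1 rat well below its 2 group mates.

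Chid1 (ENSRNOG00000050181), a chitinase-like protein that binds stabilin-1 on macrophages, was highest in HF, the group where Fuom was lowest. It stood at 0.0577, 0.324 and 0.263 CPM in Sham, at 4.70, 2.45 and 3.65 CPM in HF, at 1.46, 1.32 and 0 CPM in HFE, and at 0.279, 0 and 0.482 CPM in BAIBA. The HF rats, with 40 to 82 counts, lay above all 9 other rats, and HFE was the group that was split, with 22, 19 and 0 counts. How many of all genes had the HF rats on top was not counted.

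RGD1563601 (ENSRNOG00000031706) is described in the table as similar to the protein of Tpi1, the glycolytic enzyme triosephosphate isomerase. It had the widest gap of the 12 rows, 2.94, between 0.823 and 9.65 CPM, a 7.67-fold step. Sham rats had 16.9, 13 and 13.9 CPM, HF rats 0.401, 23.2 and 0.741 CPM, HFE rats 9.65, 12 and 0.823 CPM, and BAIBA rats 0.446, 0.192 and 0.302 CPM. All Sham rats were high and all BAIBA rats low, HF held 1 high rat of 3, and HFE held 2. How many of all genes separate Sham from BAIBA was not counted.

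LOC100911994 (ENSRNOG00000050855) went against the description of a gene switched within groups. It stood at 0.115, 0 and 0.197 CPM in Sham, at 0.229, 0.184 and 0.159 CPM in HF, at 3.20, 1.94 and 3.61 CPM in HFE, and at 3.63, 1.28 and 2.71 CPM in BAIBA. Sham and HF rats had 0 to 4 counts and HFE and BAIBA rats 20 to 65 counts, so no group was divided. Over all 14917 genes passing the filter, 31 had every HFE and BAIBA rat above every Sham and HF rat, and LOC100911994 was the only one of them with a step over 1, at 1.29. The next was Lurap1l, at 0.23, and 24 genes lay the other way round, with Npr3 the widest at 0.35.

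No single division of the rats was common to the 11 measured rows. Among their 55 pairs, 0 divided the rats in the same or the mirrored way at the widest gap. Only 4 of the rows had an on-off gap. In the others the widest gap was 1.29 or less, so the side of a rat is loosely set. An exact match was therefore hard to reach, and its absence does not show that the rows vary independently. The number of rats on the same side for a pair ran from 2 to 10 with a median of 6 of 12. Tma7 and Ncbp2 shared 10 rats, differing in Sham 2 and HFE 2, and had a correlation of 0.74. Uchl3 (ENSRNOG00000046120) and LOC100911994 also shared 10 rats, with a correlation of 0.65. Pairs that shared only 2 rats were the 2 Uchl3 rows, Tma7 with Fuom (-0.75), Tma7 with LOC100911994 (-0.69) and Ncbp2 with LOC100911994 (-0.63). Over all pairs the correlation ran from -0.83 to 0.74 with a median of -0.09, and 26 were positive. These are correlations across 12 rats, described with no test.

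**Figure D2:**
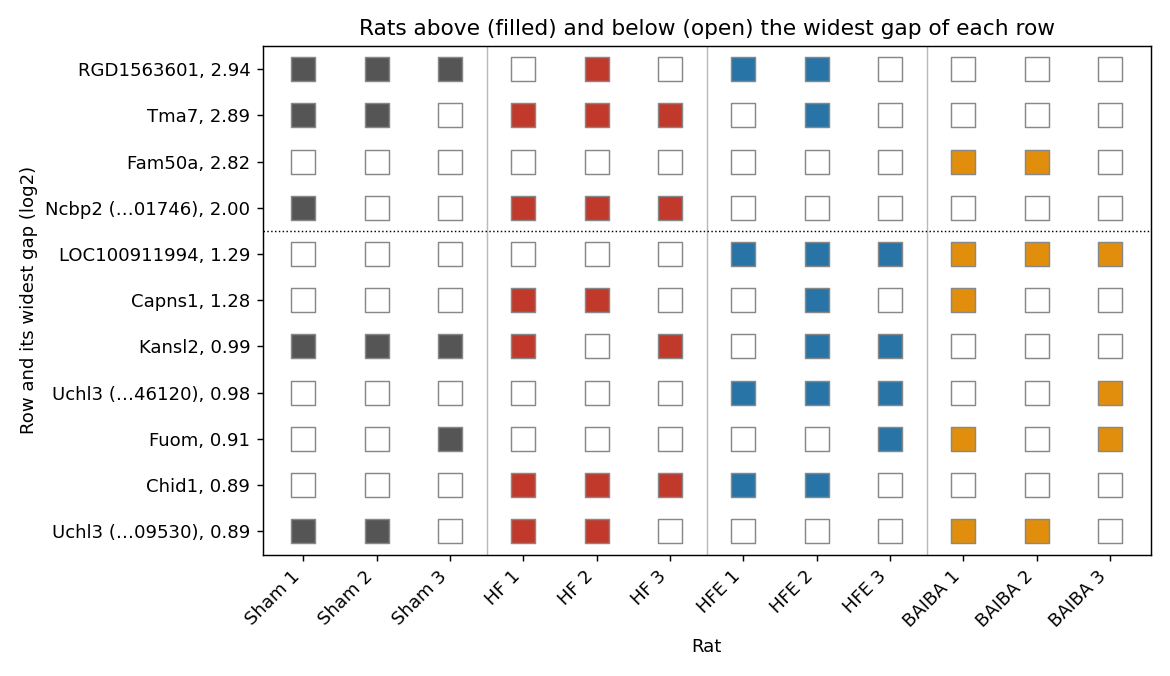
Rats on the x axis that lay above (filled, in the colour of the group) or below (open) the widest gap of each row, with rows ordered by that gap in log2 units. Rows above the dotted line have an on-off gap, and no pair of the 11 rows shows the same or the mirrored row of squares.

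No rat was high or low in all rows. HFE 2 was above the widest gap in 7 of 11 rows, HF 1 and HF 2 in 6, and Sham 3, BAIBA 2 and BAIBA 3 in 3.

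A feature that the choice of genes did not use was found in the table itself: each of the 10 symbols had another row naming the same gene. Such a row had the same symbol, the same description apart from words such as "like", or a description that spelled the other gene's present or older symbol. This naming rule was made after the genes had been looked at, and the counts are a description. By it, 740 of 13591 Ensembl genes passing the filter had such a row, 5.44%. With only the symbol or the description, again apart from words such as "like", 6 of the 10 symbols had one, beside 5.17% of those genes. Of the 27 other Ensembl genes with an on-off gap, 11 had another row, 40.7%.

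Fam50a and its namesake LOC100910130, described as FAM50A-like, were each on in 2 rats, and in different ones. LOC100910130 (ENSRNOG00000058439) had 169 counts in Sham 3 and 267 in HF 1, and 2 to 13 counts in the other 10 rats, a gap of 3.20. Fam50a was at 4 counts in Sham 3 and 11 in HF 1, and LOC100910130 at 8 in BAIBA 1 and 2 in BAIBA 2. No rat had both rows high, and 8 rats had both low. The sum of both rows still spanned 22.0-fold.

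For LOC100911994, whose description uses an older name of the Vps50 protein, the other row is Vps50 itself, which encodes a subunit of a complex that returns cargo from endosomes. Vps50 had 9, 8.49 and 10 CPM in Sham, 9.86, 9.45 and 7.47 CPM in HF, 7.12, 10.5 and 8.48 CPM in HFE, and 6.25, 8.79 and 10.9 CPM in BAIBA. The 4 groups overlapped, with a widest gap of 0.18. LOC100911994 and Vps50 together gave 7.63 to 13.6 CPM, a 1.74-fold range against 8.25-fold for LOC100911994 alone. Vps50 was the larger row in every rat, so the narrower range of the sum follows from its steady level. Whether the rows offset each other was not tested.

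RGD1563601 had Tpi1 as its namesake, at 11.5 to 18.7 CPM with a widest gap of 0.18 and a correlation of 0.22 with it. A further row, LOC100911515, is described as triosephosphate isomerase-like and was added after its values had been seen. It ranged from 24.6 CPM in BAIBA 2 to 146 CPM in HF 2, where RGD1563601 was also highest, and their correlation was 0.71. Per length, in FPKM, LOC100911515 lay between 14.6 and 88.8, Tpi1 between 7.72 and 13.1, and RGD1563601 between 0.249 and 30.8. The 3 rows summed to 36.4 to 182 CPM, a 4.95-fold range against 34.3-fold for RGD1563601. LOC100911515 was the largest of the 3 rows in every rat, so this sum mostly follows its level.

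Capns1 had 2 namesakes described as calpain small subunit 1-like. LOC100912380 ranged from 3.08 to 6.39 CPM and LOC108348197 from 0.741 to 1.33 CPM, both without the steps of Capns1. The namesake of Tma7, LOC100910678, carries an older name of the protein and ranged from 0.669 to 6.59 CPM, with a correlation of 0.01 with Tma7. For Fuom, LOC100911225 ranged from 0.0648 to 2.65 CPM and was highest in Sham 1. For Chid1 and Kansl2, LOC100911881 had at most 2 counts and LOC103690317 at most 7 counts in a rat, so these rows added little to the sums. Whether reads were moved between rows of the same name was not tested, and the sources used here do not say how reads fitting several places were counted.

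**Figure D3:**
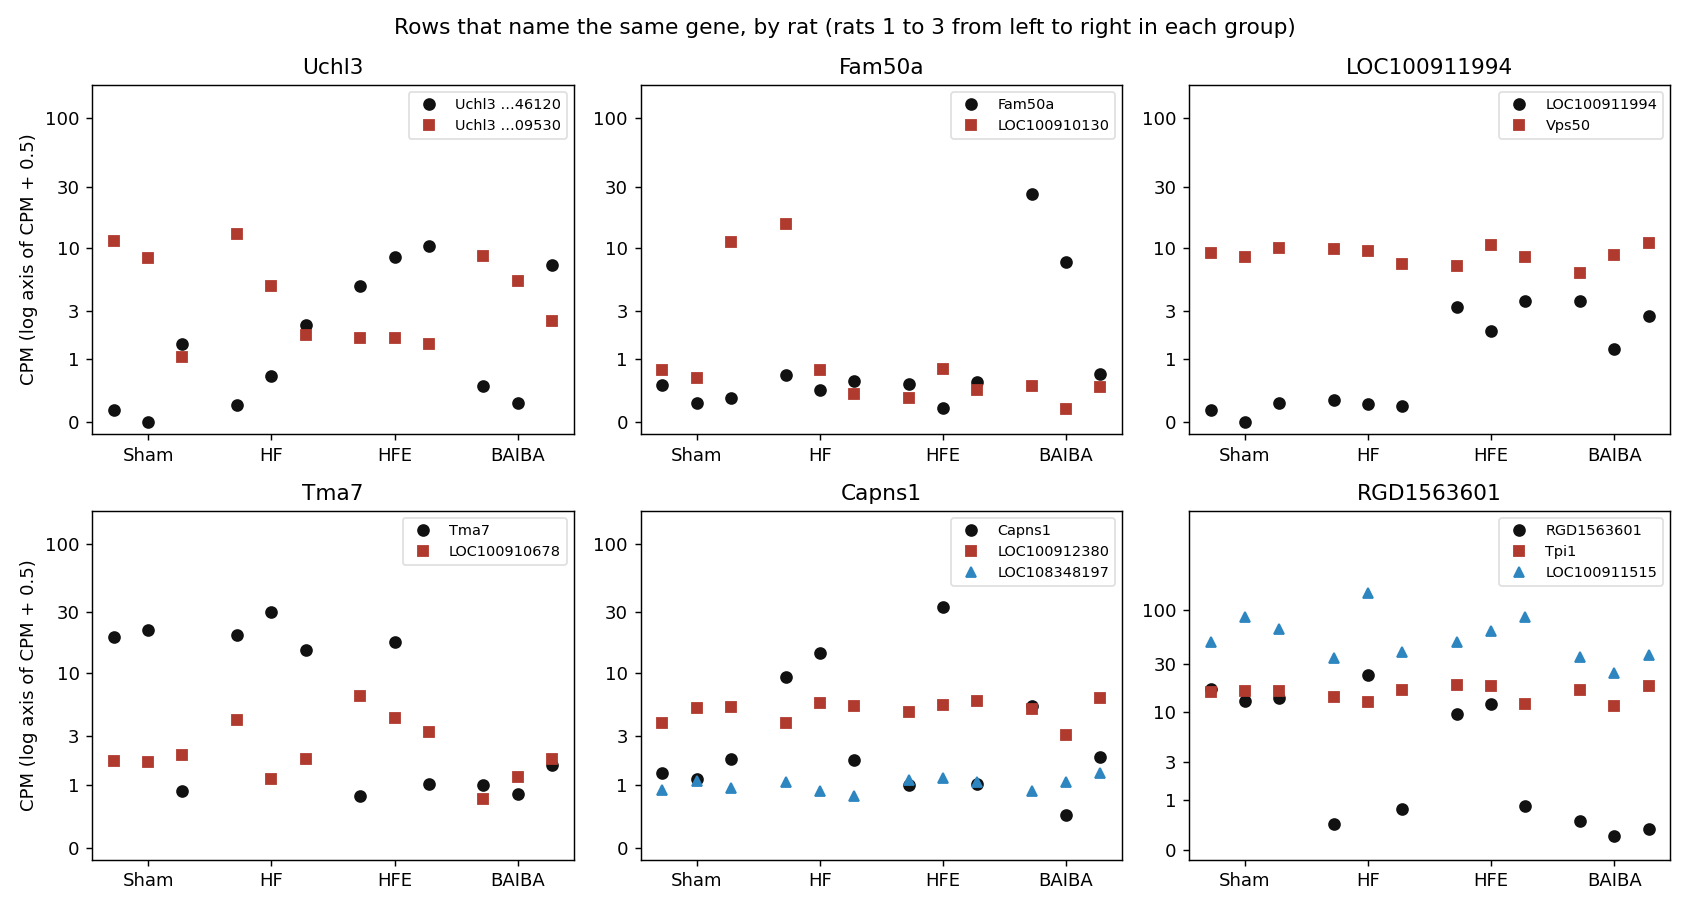
CPM on a log axis of CPM + 0.5 in every rat for 6 of the genes (black) and the rows of the same name (red, blue), with rats 1 to 3 from left to right in each group. The 2 Uchl3 rows run opposite, Fam50a and LOC100910130 are high in different rats, and Vps50 and Tpi1 stay within 6.25 to 10.9 and 11.5 to 18.7 CPM.

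In the order of genes on GRCr8, 16 nearest genes on either side of 8 of the 10 symbols were in the table, and 10 of them passed the filter. Of those 10, 8 ranged less than 2-fold over the 12 rats on the CPM + 0.5 scale. The widest of the 8 was Echs1, beside Fuom, at 1.48 to 3.38 CPM (1.96-fold on that scale). They included Ccdc51 (1.55-fold) and Plxnb1 (1.35-fold) beside Tma7, Commd6 (1.49-fold) and Lmo7 (1.63-fold) beside Uchl3, and Plxna3 (1.60-fold) beside Fam50a. The other 2 varied as the 10 genes did: Tbcb, a tubulin folding cofactor beside Capns1, had an on-off gap of 2.47 with Sham 2, HF 1 and BAIBA 3 high, and Tspan4, a tetraspanin beside Chid1, ranged 10.2-fold. Tbcb and Tspan4 both had another row of the same name, LOC103690005 and LOC100911766, and the 8 steadier neighbours had none. Among all 16 neighbours 3 had such a row. The third was a gene below the filter, with a widest gap of 0.21 and a 2.51-fold range. Whether another row bears on the variation was not tested. The correlation was 0.01 for Tbcb with Capns1 and -0.23 for Tspan4 with Chid1.

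RefSeq held 9 promoter windows of 300 bases for the 8 symbols, Kansl2 having 2 that overlap. Their median GC content was 59.3%, with 23 CpG dinucleotides, beside 51.7% and 7 over all 33469 windows of the table, expressed in heart or not. The windows ran from 52.3% and 7 in Fuom, near that background, to 67.7% and 38 in Ncbp2. The letters TATAAA, searched on both strands, were in 0 of the 9 and in 14.2% of all windows. With so few windows nothing is read from that.

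Partner genes, which work in the same complex or pathway as a listed gene, were measured to see how far they ranged over the rats. Whether they rose and fell with the listed gene was not tested, and a narrow range cannot show it. Of 64 listed, 60 rows were in the table and 56 passed the filter, and 0 of them had an on-off gap. On the CPM + 0.5 scale their range over the 12 rats had a median of 1.40-fold and reached 3.58-fold at most, beside a median of 1.71-fold for all 14917 genes and 11.7-fold for the 11 rows.

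Ncbp3 and Phax, which join Ncbp2's complex on capped RNA, ranged 1.52-fold and 1.36-fold. Denr, which acts with ribosomes after termination, ranged 1.41-fold, and the ribosomal scaffold protein Rack1 (ENSRNOG00000052620) 1.49-fold. In the NSL complex of Kansl2 the host cell factor Hcfc1 ranged 2.37-fold and Phf20 1.62-fold. The ubiquitin hydrolase Uchl1, a low gene at 0.259 to 1.71 CPM, ranged 2.91-fold, and the modifier Nedd8 1.35-fold. Among calpain genes Capn10 ranged 2.19-fold and the inhibitor Cast 1.18-fold.

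The fucosidases Fuca2 and Fuca1 ranged 2.23-fold and 1.58-fold. Chi3l1 and Chit1, of the chitinase family that Chid1 resembles, ranged 3.58-fold (2.66 to 10.8 CPM) and 2.48-fold (0.401 to 1.73 CPM), and their list had the highest median range on this scale, 2.00-fold. The splicing factors Prpf8 and Ddx41 ranged 1.61-fold and 1.81-fold. Of the glycolytic genes, the enolases Eno3 and Eno1 ranged 2.93-fold and 1.58-fold. In each list the median range lay between 1.33-fold and 2.00-fold.

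**Figure D4:**
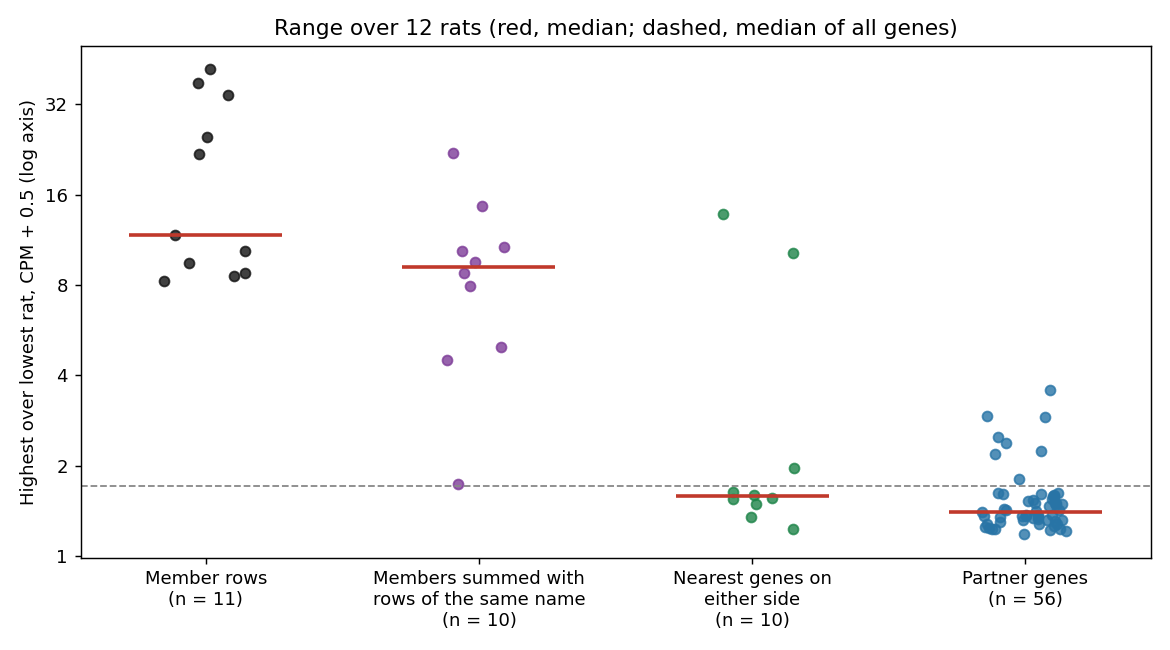
Highest over lowest rat on the CPM + 0.5 scale (log axis) for the 11 measured rows, for the 10 genes summed with rows of the same name, for 10 nearest genes and for 56 partner genes, 1 point per row or gene. Red lines are medians (11.7, 9.14, 1.58 and 1.40) and the dashed line is the median of all genes, 1.71.

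Partner genes were tested, since the choice of the 10 genes did not use their levels, although the lists were drawn up with earlier results of these data known. In edgeR's quasi-likelihood test over all genes, 0 of 56 partner genes passed in each of the 4 comparisons, where passing meant an adjusted p under 0.05 with a log2 change larger than 1 in size. At an unadjusted p under 0.05 there were 2 in HF against Sham (3.57%, beside 6% of all genes), 6 in HFE against HF (10.7% beside 7.62%), 2 in BAIBA against HF (3.57% beside 5.55%) and 4 in BAIBA against Sham (7.14% beside 7.41%). DESeq2 also passed 0 in each, with 1, 6, 2 and 3 at an unadjusted p under 0.05 (1.75, 10.5, 3.45 and 5.17%, beside 5.61, 6.68, 4.57 and 6.29% of all genes). The lowest adjusted p of edgeR was 0.805 (Ddx41), 0.627 (Prpf8), 0.768 (Hcfc1) and 0.122 (Fuca2). For Fuca2 the log2 difference, BAIBA minus Sham, was -0.69 ± 0.11 (SE). DESeq2 gave it an adjusted p of 0.00403, with the fold change under the limit.

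The same fits gave calls for the 10 genes, which are set down beside the background and read no further, because these rats chose the genes. With edgeR 0 of 8 rows tested were called in HF against Sham, where 0% of all genes were, 0 of 9 in HFE against HF (0%), 0 of 9 in BAIBA against HF (0%) and 1 of 9 in BAIBA against Sham (0.0402%). In these 4 comparisons 898 of 14957, 1139 of 14938, 834 of 15039 and 1106 of 14920 genes had an unadjusted p under 0.05. The called row was RGD1563601, with 14.6 ± 2.04 CPM (SD, n = 3) in Sham and 0.313 ± 0.127 CPM in BAIBA, a log2 difference of -5.48 ± 0.28 (SE). With a fit of all 12 rats 0 listed rows were called in BAIBA against Sham, so that call was lost.

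DESeq2 called 3 of 9 rows in HF against Sham (background 0.152%), namely Capns1, Fuom and Chid1. It called 3 of 11 in HFE against HF (0.121%), namely LOC100911994, Uchl3 (ENSRNOG00000046120) and Ncbp2. That Uchl3 row had a log2 difference of 2.97 ± 0.68 (SE). The other Uchl3 row, at -2.03 ± 0.62, was tested and not called. In BAIBA against HF it called 5 of 10 (0.139%), namely Fuom, Chid1, LOC100911994, Tma7 and Ncbp2. In BAIBA against Sham it called 4 of 10 (0.443%), namely LOC100911994, Fam50a, Kansl2 and RGD1563601. These comparisons share their HF or Sham rats. The call on Fam50a, a log2 difference of 5.23 ± 1.29 (SE), stood beside a BAIBA rat with 11 counts against 3 to 8 in Sham.

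For each row the gene whose level followed it most closely over the 12 rats was looked up, and 7 of these 11 genes spanned less than 1 on the log2 scale. Tma7 was followed by Dcaf12 at a correlation of 0.87, although Dcaf12 spanned only 0.34 on the log2 scale. Ncbp2 was followed by Ctr9 (0.93), Fuom by Slc5a6 (0.96), Chid1 by Plrg1 (0.88) and Kansl2 by Spock3 (0.88). For the Uchl3 rows the nearest were Cars2 (0.88) and Acot1 (0.90), for LOC100911994 Arfip2 (0.90) and for RGD1563601 Cited4 (0.90). Steps of their own were seen in Tuba1c, a tubulin near Capns1 in pattern (0.90, gap 1.10), in one Rpl7a row (0.82, gap 3.00), and in Pla2g2a (0.92, gap 2.26) and Sema3e (0.90, gap 2.06), which followed Fam50a. Of these genes only the Rpl7a row had an on-off gap. Pla2g2a and Sema3e did not meet its rule on the rats on each side and a divided group. No row of the same name was among the 3 closest to any of the 11 rows. These correlations are the highest picked from 14916 genes over 12 rats, and they are a description.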

How the data were processed

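Messenger RNA from 12 hearts was sequenced as paired reads. The authors trimmed the reads, aligned them with HISAT2, used StringTie and Gffcompare to add genes missing from the annotation, and took gene counts from featureCounts of Subread. The submitters' processing notes name mm9, a mouse build, while the identifiers are rat Ensembl ones. The methods state alignment in an orientation mode. Tool versions, the strand setting of the counting and the handling of reads that fit several places are not given in the sources used here. The deposited count tables are raw and not normalized, and the authors derived FPKM from the same counts with the length of each gene. Other deposited tables held the same counts and FPKM, with 0 values differing.

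From the counts, CPM were computed with TMM factors (edgeR 4.0.16, R 4.3.3). Comparisons were fitted on the 2 groups compared with filterByExpr and edgeR's robust quasi-likelihood test, Benjamini-Hochberg adjustment, with calls at an adjusted p under 0.05 and a log2 change larger than 1 in size. Alternatives were DESeq2 1.42.0, limma 3.58.1 on log2(FPKM + 1) and log2(FPKM + 0.1), other scalings, filters, pseudocounts and gap limits, a replicate block, a fit of all groups and leaving out each rat. The fits were tested on simulated counts. Replicates differed by more than sampling noise (chi-square per degree of freedom 11.8 to 33.7).

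The genes, the partner lists, marker lists and rules were chosen with earlier results of these data known. Named beside the 10 genes are the nearest genes on either side, the genes most like each row in level, the 2 partner genes of each list with the widest gap, and the 10 other on-off genes with a symbol and the widest gap. Neighbours and promoter sequence are from RefSeq (GRCr8), whose table held 8 of the 10 symbols. LOC100911994 and RGD1563601 were not matched, and similarity of proteins was not analysed here. Of the nearest genes, 1 is not reported here by name.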

Additional observations from a re-analysis of the deposited data

How the results depend on the processing

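The number of the listed rows called, 0, 0, 0 and 1 in HF against Sham, HFE against HF, BAIBA against HF and BAIBA against Sham, became 3, 3, 5 and 4 with DESeq2. Without the low-count filter it was 2 in HFE against HF, 2 in BAIBA against HF and 3 in BAIBA against Sham, and limma on log2(FPKM + 1) gave 1 in HFE against HF. In BAIBA against Sham a fit of all 12 rats gave 0. Rats with the same replicate number had correlations of -0.0789 to 0.125 in their deviations, so the numbers did not pair them, and the replicate block gave 2 in BAIBA against Sham. Leaving out 1 rat gave 0 to 1 (1 without HF 2), 0 to 0, 0 to 1 (1 without HF 3) and 1 to 2 (2 without Sham 3 or BAIBA 1). For partner genes it gave 0 to 0 in each comparison. The 60 genes with an on-off gap became 116 with log2(CPM + 0.1), 200 with a gap of at least 1, 31 with at least 3 and 39 with at least 3 rats on each side, and 56 to 62 when 1 rat was left out. The 4 listed rows with such a gap became 0 with a gap of at least 3, and 3 to 4 without 1 rat. The 0 pairs with the same or mirrored division became 1 with log2(CPM + 0.1) and 0 to 1 without 1 rat (1 without Sham 3 or HF 2). The 10 symbols with another row of the same name became 6 by symbol or description alone, a rule added after seeing the data. The spread between replicates is wide in these genes, which were selected on these levels, so it is a loose measure of steadiness. Of 176 widest gaps under these settings, 172 moved by less than that spread. The others were Fam50a (2.82 to 4.54 without BAIBA 2) and LOC100911994 (1.29 to 2.07 with log2(CPM + 0.1), 0.89 with log2(CPM + 1) and 1.75 without BAIBA 2). Capns1 moved from 1.28 to 2.00 without BAIBA 1 and Uchl3 (ENSRNOG00000046120) from 0.98 to 1.51 without HFE 1. The causes were not tested. With 3 rats a group and 2 to 27 counts in the low rats of the 4 rows with an on-off gap, the low levels are known only roughly.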

Other observations

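An on-off gap was found in 60 genes over the whole table, 29 of them without an Ensembl identifier. The 4 listed rows ranked 35 (RGD1563601), 36 (Tma7), 39 (Fam50a) and 60 (Ncbp2) among them by the width of the gap. No other gene of the 60 had the same rats high as any of those 4 rows. A gene without a symbol mirrored Fam50a, with BAIBA 1 and BAIBA 2 low and the 10 other rats high.

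Some divisions were held by several genes. A set of 17 genes that the authors assembled themselves, with no symbol, was low in HF 3, HFE 2 and BAIBA 2 and high in the 9 other rats, and reached 605 CPM. High in HF 1 and BAIBA 1 alone were the epithelial keratins Krt7 (5.05 and 9.65 CPM) and Krt14 (4.53 and 6.41 CPM), the epithelial cadherin Cdh1 (3.73 and 7.53 CPM) and AABR07060872.1 (121 and 39.9 CPM). In the other 10 rats these genes reached 0.197, 0.181, 0.394 and 4.50 CPM at most. Gstm5, a glutathione transferase, and 3 genes without a symbol were high in HF 3 and HFE 1.

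The 10 widest gaps among other genes with a symbol were led by Fam111a, a protease gene of DNA replication, with a gap of 6.06 between 3.09 and 240 CPM and HF 1, HFE 1, BAIBA 1 and BAIBA 3 high. LOC103690108 followed with 4.73 and 7 rats high. Selenow, a small selenoprotein, had a gap of 3.83 and was low in Sham 3 and BAIBA 3. Scd, the desaturase of fatty acids, had 3.71, with HF 1, BAIBA 1 and BAIBA 3 high. Ndufa1, a subunit of respiratory complex I, had 3.55, with 4 rats high.

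Pdcd5 had a gap of 3.47 and the interferon-induced gene Ifit1 one of 3.35, each with 8 rats high. LOC100910130, the namesake of Fam50a, had 3.20. Srm, the spermidine synthase, had 3.05, with HFE 3 and BAIBA 3 high, and AABR07060872.1 had 3.01. Of these 10, Selenow, Pdcd5, LOC100910130 and Srm had another row of the same gene name.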
